A study of Mus musculus with 2 samples.

Results

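Single-cell RNA sequencing of mouse lymph node immune cells was used here to describe T cells with a transcript of the CD8 co-receptor β chain and none of the γδ receptor δ chain, in mice carrying a conditional Rpa1 knockout (CKO) and in wild-type mice (WT). Both genotypes were on the C57BL/6 background, and each was represented by 1 library. The promoter that drives the recombinase, the deleted exons, and the number, age and sex of the mice behind each library are not given in the sources used here. A cell entered if it had at least 500 unique molecular identifiers (UMIs, each standing for 1 captured transcript), at least 200 detected genes and at most 10% mitochondrial UMIs. It also needed at least 2 UMIs of Cd3d, Cd3e and Cd3g together, at least 1 of Cd8b1, and none of Cd4, Trdc, Ccl5, Cd79a and Ms4a1. Nkg7 had to be under 2 UMIs, and Nr4a1, Nr4a3, Tnfrsf9 and Egr2 together under 3. The members were thus chosen by these measured UMI counts, which took 798 of 26523 cell barcodes, 192 of 13754 in CKO and 606 of 12769 in WT. The levels of the gate genes therefore describe how the cells were chosen and support nothing further.

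Naive CD8 T cells circulate through lymph nodes with an αβ T cell receptor and the CD8αβ co-receptor, which binds class I major histocompatibility molecules. Interleukin-7, tonic receptor signals and interferon shape their survival and readiness before they meet antigen, and they divide little until then. Replication protein A, of which Rpa1 is the large subunit, binds the single strands that open up when DNA is copied or repaired.

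The libraries held 76200586 UMIs in CKO and 84813609 in WT, with medians of 4549 and 5984 UMIs per barcode. The gated cells held 1094593 UMIs in CKO and 3805616 in WT, with medians of 5637 and 6013.5 UMIs and of 1922.5 and 1948 genes per cell. Their median mitochondrial share was 2.64% in CKO and 2.81% in WT. Of all barcodes, 56 occurred in both libraries, and 1 of these was a gated cell in both. With 1 library per genotype there is no replicate check of any difference: no test was run, and genotype cannot be told apart from the library or from the mice behind it. Intervals are exact at 95% and reflect counting error alone. Those of gene levels and their ratios count each UMI on its own, though several can lie in 1 cell. Levels are UMIs summed over the gated cells of a library and scaled to counts per 1000000 (CPM). A lower level can mean fewer cells with a transcript or less of it per cell, which summed counts cannot tell apart. Among genes on the Y chromosome, Eif2s3y, named after its values were seen, stood at 11.9 CPM in CKO and 70.2 CPM in WT, with a like gap in B cells of the same libraries (18.6 and 79.8 CPM). The other Y-linked genes looked at did not share that gap: Ddx3y stood at 109 and 82.8 CPM (1.31, 1.05 to 1.63), Kdm5d at 33.8 and 33.1 CPM (1.02) and Uty at 21.01 and 22.3 CPM (0.941). Xist was at 0 UMIs in the gated cells of both libraries.

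The data went partly against the name naive-like CD8 T cells. Cd8a, which encodes the co-receptor α chain and was not a gate gene, had no UMI in 84 of 192 CKO cells (43.75%, 36.6 to 51.1%) and in 153 of 606 WT cells (25.2%, 21.8 to 28.9%). Gated cells without Cd8a carried transcripts of helper T cells. Zbtb7b, the transcription factor that directs cells to the CD4 lineage, stood there at 65.1 CPM in CKO and 32.5 CPM in WT. In naive-like CD4 T cells (1182 CKO and 2484 WT cells) it stood at 58.2 and 53.7 CPM. That gate kept the other limits but required a UMI of Cd4 and none of Cd8a, Cd8b1, Foxp3 and Maf, so it also left out Foxp3-positive cells. Cd40lg, the helper ligand CD40L, stood at 58.1 and 50.6 CPM, against 61.0 and 76.6 CPM in the CD4 gate. In gated cells with Cd8a (108 CKO and 453 WT cells), Zbtb7b stood at 6.02 CPM in CKO and 1.01 CPM in WT, and Cd40lg at 3.01 and 2.69 CPM. Lcn4, a lipocalin gene among the markers of the population, was at 0 in the CKO cells without Cd8a and at 12.04 CPM in the WT ones, against 25.6 and 52.1 CPM in the cells with Cd8a. The cells are therefore called Cd8b1-gated T cells, and the main results are also given for those with a Cd8a UMI, a division chosen after seeing the data.

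**Figure D1:**
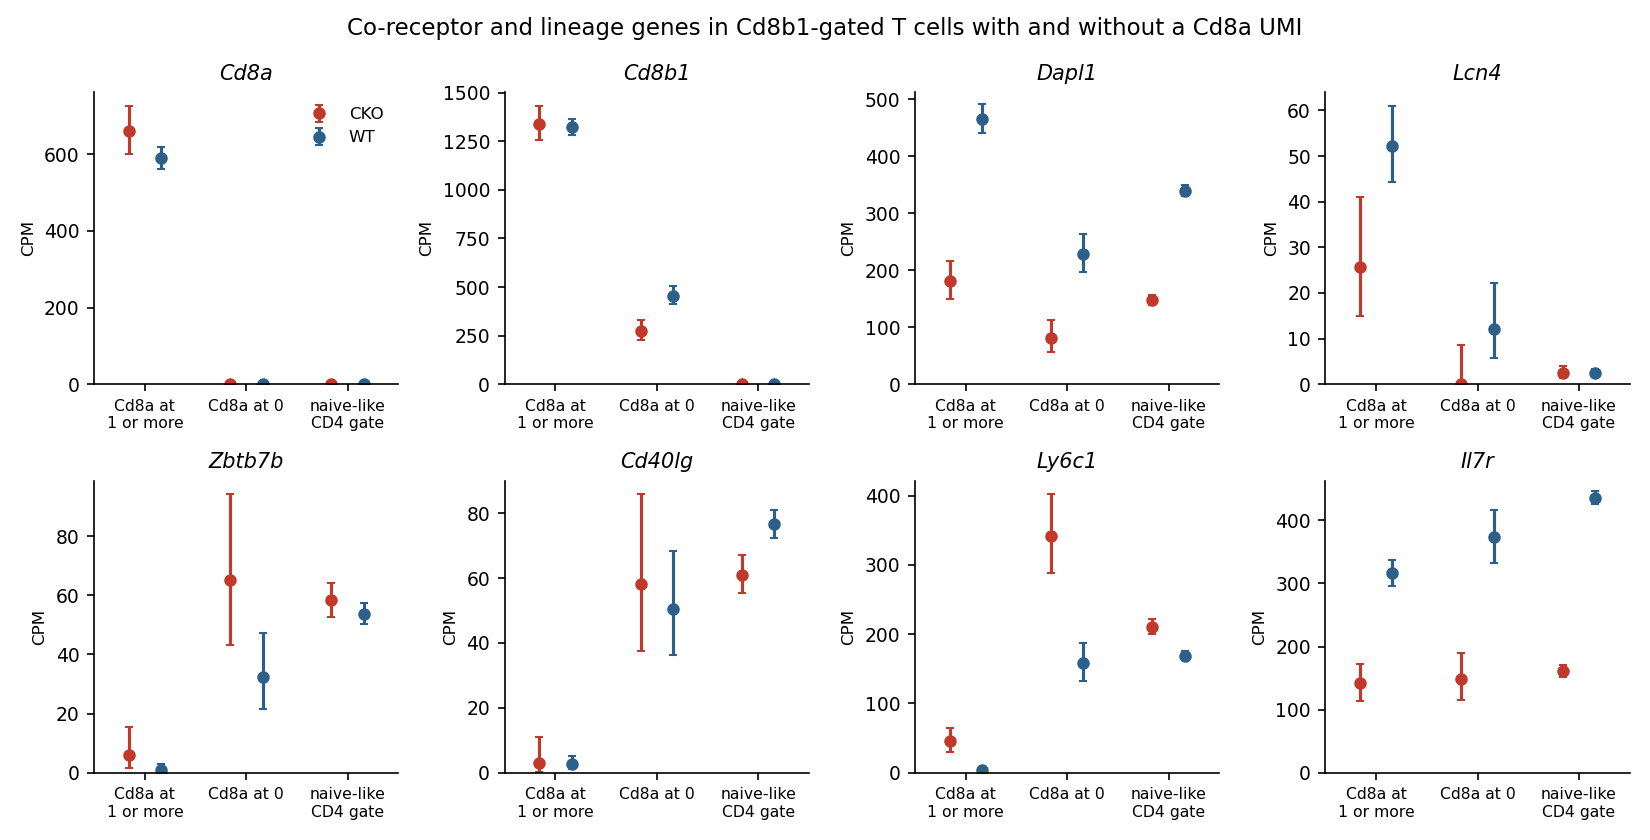
Points give the level in CPM of 8 genes in Cd8b1-gated cells with a Cd8a UMI, in those without one and in the naive-like CD4 gate, CKO left of WT, with exact 95% counting intervals as bars. Zbtb7b stands at 65.1 CPM in CKO cells without Cd8a and at 6.02 CPM in CKO cells with it.

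The edges of the gate showed the same mixture. Cd8b1 stood at a single UMI in 70 CKO and 107 WT cells, which held Zbtb7b at 69.6 and 41.1 CPM, and at 5 or more in 82 and 420 cells, which held it at 3.89 and 1.09 CPM. Outside the gate, 577 CKO and 1270 WT cells failed only for want of a Cd8b1 UMI, and they held Zbtb7b at 64.8 and 57.6 CPM. The limit on Nkg7, a cytotoxic granule gene, left out 198 CKO and 1844 WT cells that met all other limits. These cells were rich in the marker transcripts: Cd8a stood at 608 and 517 CPM, and Dapl1 at 315 and 542 CPM. In WT the limit thus left out more cells than the gate took in, and it did so in CKO by a small margin. A single UMI of Nkg7, just inside the limit, occurred in 46 of 192 CKO cells (24.0%) and 309 of 606 WT cells (51.0%).

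Cd8b1-gated cells made up 192 of 3451 T cells in CKO (5.56%, 4.82 to 6.38%) and 606 of 8109 T cells in WT (7.47%, 6.91 to 8.07%), a ratio of 0.744 (0.630 to 0.877). T cells with Cd8b1 and without Cd4 made up 19.99% (18.7 to 21.4%) in CKO and 37.5% (36.4 to 38.6%) in WT. Without the limit on Nkg7, the gate held 390 CKO and 2450 WT cells, or 11.3% and 30.2% of T cells, a ratio of 0.374 (0.335 to 0.416). With each cell thinned to 2000 UMIs before gating, the shares were 10.4% and 22.1%, a ratio of 0.470. That gate took in more cells, 329 of 3165 in CKO and 1663 of 7512 in WT. With fewer UMIs per cell the upper limits, such as that on Nkg7, are easier to meet. The thinned shares are thus not those of the same cells at equal depth. The direction turned to 1.26 when cells with a UMI of any of the effector genes Gzmm, Klrc1, Klrc2, Klrk1, Klrd1, Xcl1, Eomes, S100a4 and Itgb1 were left out, so the size and the sign of the difference in share depended on where the naive boundary was drawn. Klrd1, one of these genes, was itself lower in CKO.

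The targeted gene was sparse. Rpa1 had 29 UMIs in CKO (26.5 CPM) and 137 in WT (36.0 CPM), a ratio of 0.736 (0.475 to 1.10). The counts are 3′ tags, which may lie outside the deleted part, so this level does not check the label. Rpa2, the middle subunit, stood at 13.7 and 18.7 CPM (0.735, 0.391 to 1.29). Rpa3, the small subunit, stood at 42.0 and 29.4 CPM (1.43, 0.990 to 2.03). None of the 3 intervals excluded 1. In naive-like CD4 T cells, where more cells were counted, Rpa1 stood at 24.2 CPM in CKO and 46.0 CPM in WT, a ratio of 0.527.

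Few genes stood far apart between the libraries, and the balance of higher and lower genes depended on the scaling. Among the 2912 genes that reached 50 CPM in either library, 94 (3.23%) stood higher in CKO by 1.5-fold or more and 28 (0.962%) lower by as much, which is what "higher" and "lower" mean in the counts below. The median log2 ratio over these genes was 0.11, so ratios are best read against that shift. With the libraries scaled by the median of ratios, which sets that shift to 0, the counts were 46 higher and 59 lower, and higher genes made up 43.8% of the calls, against 77.0% with scaling by the total. Totals without ribosomal protein and mitochondrial genes gave 113 higher and 116 lower. In the cells with a Cd8a UMI, 2948 genes reached 50 CPM and the counts were 174 and 48, of which 65 and 19 were among the calls in all gated cells.

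**Figure D2:**
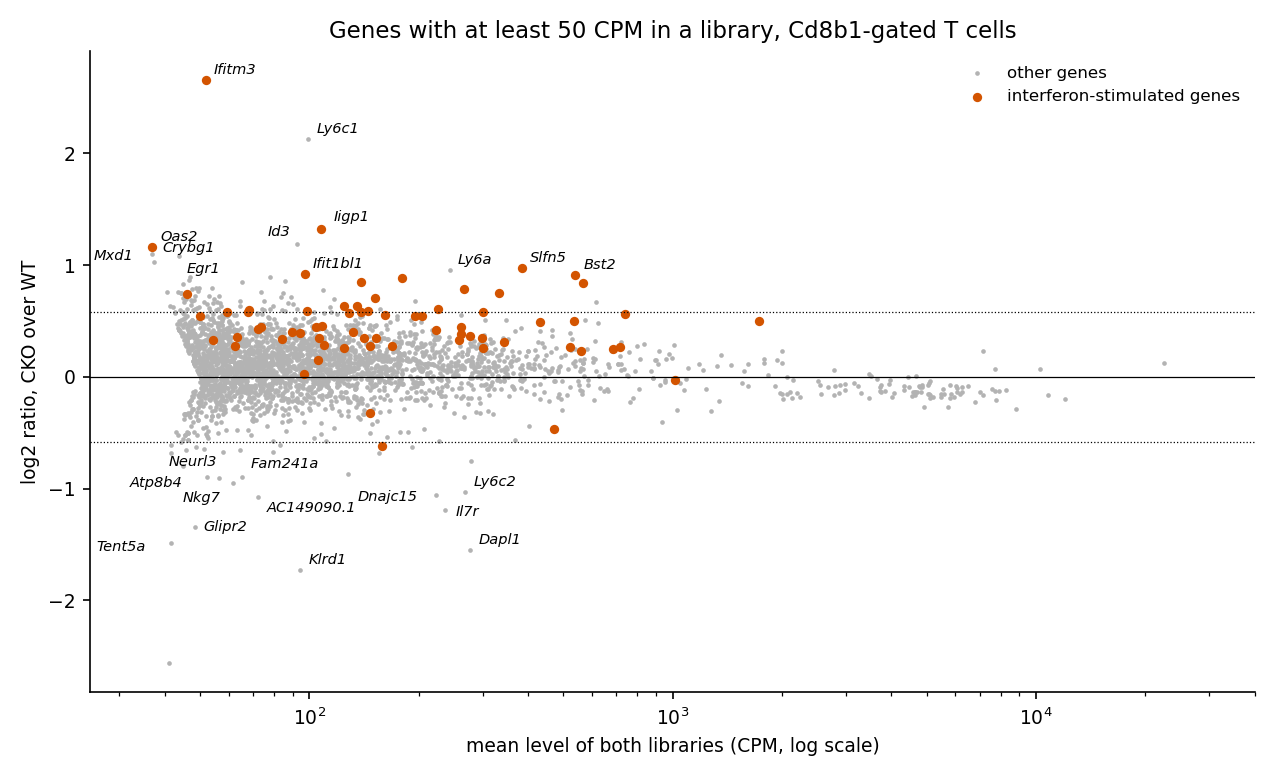
Each point is 1 of the 2912 genes that reached 50 CPM in either library, with the mean level of both libraries (CPM, log scale) on the x axis and the log2 ratio of CKO over WT on the y axis. Interferon-stimulated genes are coloured and mostly lie above 0, dotted lines mark 1.5-fold, the 24 ranked genes are labelled, and the lowest point is the Y-linked Eif2s3y.

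The genes with the highest ratios were led by Ifitm3, an interferon-induced membrane protein that restricts virus entry (chromosome 7, 141009586 to 141010770, as all gene positions on GRCm38). It stood at 89.5 CPM in CKO and 14.2 CPM in WT, a ratio of 6.31 (4.48 to 8.97). After thinning each cell to 2000 UMIs, Ifitm3 was found in 9.95% of CKO and 1.49% of WT cells. B cells serve as background, with 7473 cells in CKO and 2620 in WT and median depths of 3912 and 4023 UMIs. After thinning, 12.3% and 6.42% of them held Ifitm3. The shares in the Cd8b1-gated cells thus lie at or below those of B cells, and the ratio is read no further. Next came Ly6c1, a surface protein of T cell subsets (chromosome 15, 75044018 to 75048830), at 162 CPM in CKO and 37.1 CPM in WT (4.36, 3.48 to 5.48). Ly6c1 lay mostly in cells without Cd8a, at 342 CPM in CKO and 158 CPM in WT. In cells with Cd8a it stood at 45.1 and 3.36 CPM, from 30 and 10 UMIs (13.4, 6.39 to 30.8). Ly6c1 and Ly6c2 are near-identical copies, so the division of reads between them is uncertain.

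More interferon-induced genes followed among the 12 highest. The immunity-related GTPase gene Iigp1 stood at 154 CPM in CKO and 61.8 CPM in WT (2.5, 2.04 to 3.06). It was found in 18.8% of thinned CKO cells and 9.27% of thinned WT cells, against 0.246% and 0.311% of B cells. Slfn5, a Schlafen family gene, stood at 510 and 259 CPM (1.97, 1.77 to 2.19). The tethering factor gene Bst2 stood at 704 and 374 CPM (1.88, 1.72 to 2.06), and the oligoadenylate synthetase gene Oas2 at 51.2 and 22.9 CPM (2.24). Ifit1bl1, of the antiviral IFIT family, stood at 127 and 67.3 CPM (1.89).

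Outside the interferon genes, Id3 was higher. It encodes an inhibitor of E protein transcription factors that naive CD8 T cells keep on (chromosome 4, 136143497 to 136145755). Id3 stood at 129 CPM in CKO and 56.5 CPM in WT (2.28, 1.83 to 2.83), and at 126 and 53.8 CPM in cells with Cd8a. Its thinned shares were 18.8% and 7.78%, against 24.7% and 25.3% of B cells, so these shares lie below those of B cells and are read no further. Mxd1, an antagonist of MYC, stood at 50.2 and 23.4 CPM (2.15, 1.51 to 3.04). Egr1, an immediate early gene of receptor signalling, stood at 59.4 and 28.1 CPM (2.11, 1.53 to 2.90). Ly6a, which encodes Sca-1 and is itself induced by interferon, stood at 322 and 166 CPM (1.94), and Crybg1 at 50.2 and 24.7 CPM (2.03). The thinned shares of Egr1 (6.28% and 4.80%), Ly6a (34.0% and 23.2%) and Crybg1 (7.33% and 4.97%) also lay below those of B cells. B cells held them in 9.23% and 8.29%, 52.5% and 45.9%, and 8.10% and 7.47%. The same held for AC149090.1, Neurl3, Tor3a, Fos, Bach2, Cxcr4, Nr3c1 and Tsc22d3 among genes named below. Mcl1, Runx1, Stat2, Nfatc1, H2-Q6, Atr and Cd74, also named below, had shares under those of B cells in both libraries too. So did Rpa1, Rpa2 and Rpa3, named above. All these shares are read no further, and shares were not taken for every gene named.

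The genes with the lowest ratios included markers of the population itself. Klrd1, which encodes the CD94 chain of natural killer receptors, stood at 43.9 CPM in CKO and 145 CPM in WT (0.302, 0.220 to 0.406). It is expressed together with Nkg7 in effector cells, and Nkg7 bounded the gate. Dapl1 (chromosome 2, 59484653 to 59505020) stood at 142 and 414 CPM (0.342, 0.288 to 0.404). Dapl1 is a death-associated protein gene known as a transcript of naive and resting T cells. After thinning it was found in 13.1% of CKO and 35.9% of WT cells (unthinned 21.9% and 48.8%), against 0.0819% and 0.506% of B cells. In cells with Cd8a, Dapl1 stood at 181 CPM in CKO and 466 CPM in WT, a ratio of 0.388.

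Il7r, which encodes the α chain of the interleukin-7 receptor (chromosome 15, 9505788 to 9530176), stood at 144 CPM in CKO and 329 CPM in WT (0.439, 0.370 to 0.519). It was found in 17.3% of thinned CKO cells and 38.4% of thinned WT cells, against 0.560% and 0.934% of B cells. The difference did not follow Cd8a: Il7r stood at 141 and 316 CPM in cells with a Cd8a UMI and at 149 and 373 CPM in those without. It also lay on both sides of the Nkg7 limit, with 154 CPM in CKO and 344 CPM in WT among the cells left out. Its log2 ratio stayed between -1.54 and -1.15 under all alternatives.

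The other low genes were Tent5a, a poly(A) polymerase gene (21.9 and 61.5 CPM, 0.357), and Glipr2 (27.4 and 69.4 CPM, 0.395). Dnajc15, a mitochondrial co-chaperone gene, stood at 145 CPM in CKO and 302 CPM in WT (0.480, 0.404 to 0.567). Ly6c2, whose protein Ly6C marks CD8 T cells that have seen interferon or antigen, stood at 176 and 361 CPM (0.489, 0.418 to 0.569). AC149090.1 lies on an unplaced scaffold and stood at 46.6 and 98.3 CPM (0.474). The list closed with Neurl3 (0.534), Fam241a (0.538), Atp8b4 (0.539) and the gate gene Nkg7 (42.0 and 81.2 CPM, 0.518). Apart from Nkg7, the 23 ranked genes kept their direction under every alternative except Klrd1 under the gate that removes it. With the Nkg7 limit dropped and Cd8a required, 16 of the 23 were still at least 1.5-fold apart. The ones short of it were Atp8b4, Crybg1, Egr1, Fam241a, Id3, Ly6a and Neurl3.

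**Figure D3:**
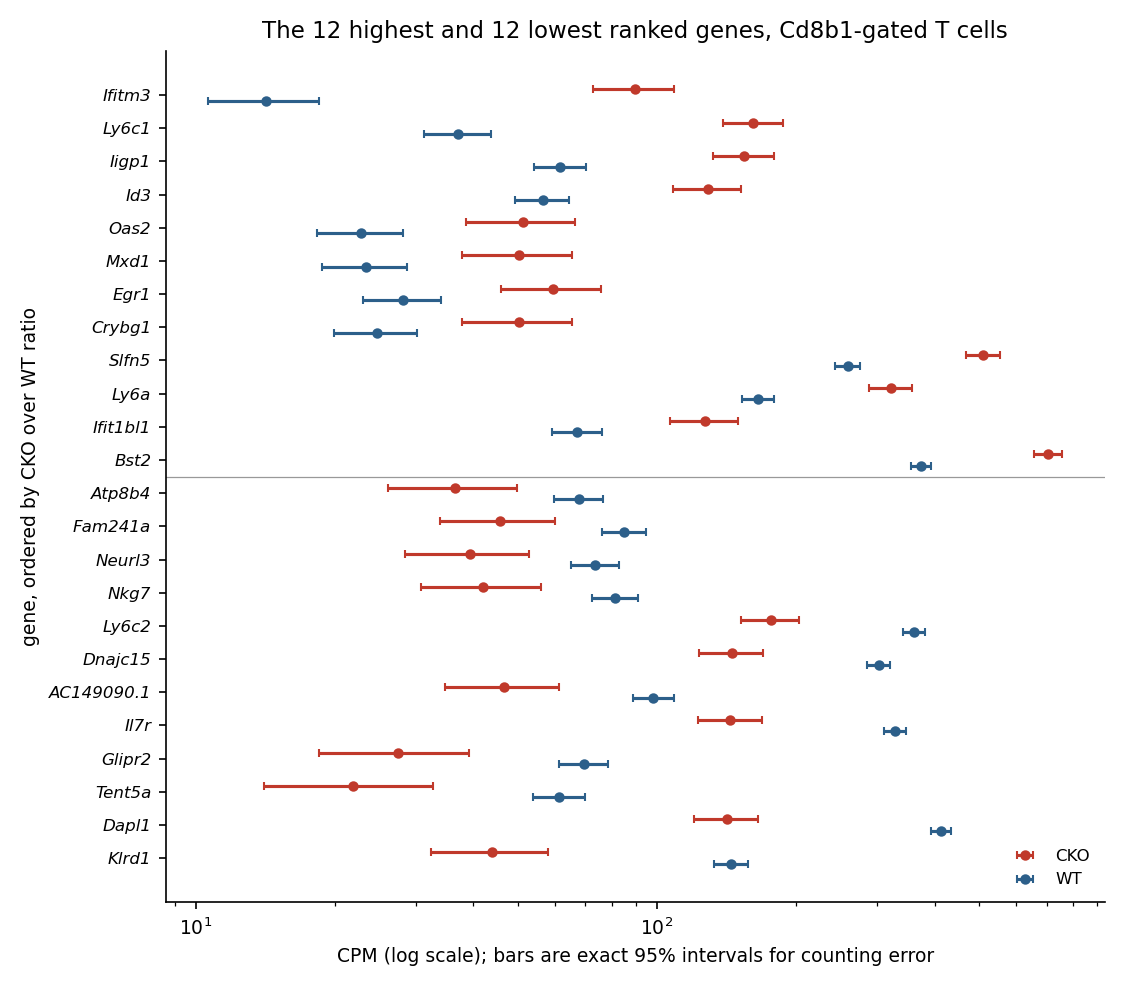
Points give the level in CPM (log scale) of the 12 highest and 12 lowest ranked genes in CKO and WT Cd8b1-gated cells, with exact 95% counting intervals as bars. The bars of CKO and WT are apart for Ifitm3 (89.5 and 14.2 CPM) and for Il7r (144 and 329 CPM).

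Interferon-stimulated genes were higher in CKO as a group. Type I interferon acts through factors that include STAT2 and IRF9, which bind a promoter element that repeats the letters GAAA. Stretches of 100 bases upstream of the start of 6 such genes are given to show that element, in RefSeq's sequence of the strand of the gene (build GRCm38.p6), with matches to GAAANNGAA on either strand in capitals, overlapping matches running together. Slfn5 (chr11:82951925-82952024, plus strand), Ifit1bl1 (chr19:34602017-34602116, minus strand, 1 of 2 matches) and Bst2 (chr8:71537542-71537641, minus strand) were among the 12 highest genes; Stat2 (chr10:128270248-128270347, plus strand), Isg15 (chr4:156200830-156200929, minus strand) and Ifit1 (chr19:34640760-34640859, plus strand) are a factor of the pathway and 2 of its common readouts.
Slfn5: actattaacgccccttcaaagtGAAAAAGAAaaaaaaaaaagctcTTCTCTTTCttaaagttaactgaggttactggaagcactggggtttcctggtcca
Ifit1bl1: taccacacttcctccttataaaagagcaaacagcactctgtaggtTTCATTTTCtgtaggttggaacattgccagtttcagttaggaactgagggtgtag
Bst2: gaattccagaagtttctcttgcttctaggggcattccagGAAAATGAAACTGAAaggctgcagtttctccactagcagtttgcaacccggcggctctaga
Stat2: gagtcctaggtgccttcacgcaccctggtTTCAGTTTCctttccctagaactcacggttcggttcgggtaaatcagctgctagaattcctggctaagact
Isg15: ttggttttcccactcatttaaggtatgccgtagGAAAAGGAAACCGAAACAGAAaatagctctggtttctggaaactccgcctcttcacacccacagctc
Ifit1: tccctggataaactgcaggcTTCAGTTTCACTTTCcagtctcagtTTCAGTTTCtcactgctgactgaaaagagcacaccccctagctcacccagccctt
The 9 letters occurred within 250 bases before the start in 35 of 66 interferon-stimulated genes that were measured and matched (53.03%). They occurred in 2211 of 27025 genes of the table (8.18%) and in 527 of 6817 genes at the same level (7.73%). The window before Ifitm3 held no match. A match is a description of the letters and shows no binding.

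For gene lists, members averaging 5 CPM or more over both libraries were counted as measured. At that level 8525 genes were measured in all, of which 759 (8.9%) were higher in CKO and 558 (6.55%) lower, with a median log2 ratio of 0.08. Of the interferon-stimulated genes, 81 were measured, 24 were higher and 1 was lower, and 71 had a ratio above 1. Their median log2 ratio was 0.45, and their summed level was 19891 CPM in CKO and 14825 CPM in WT. Members outside the ranked genes, named after their values were seen, included Isg15, a ubiquitin-like modifier, at 728 and 407 CPM (1.79, 1.64 to 1.95). The antiviral translation inhibitor gene Ifit1 stood at 338 CPM in CKO and 196 CPM in WT (1.73), and Irf7, the transcription factor that amplifies interferon, at 234 and 127 CPM (1.84). Tor3a, an ATPase gene of the list, stood at 43.9 and 18.1 CPM (2.42, 1.64 to 3.55).

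The lower member was Ifi208, of the PYHIN family, at 125 CPM in CKO and 192 CPM in WT (0.652, 0.540 to 0.784). Epsti1 stood at 396 and 548 CPM (0.724, 0.651 to 0.803), which is short of 1.5-fold but with an interval below 1. The PYHIN, guanylate-binding, oligoadenylate synthetase and Schlafen families on the list hold close copies, so their division among members is uncertain. The summed level of the list differed to a like extent on both sides of the Cd8a division. It was 19985 CPM in CKO and 14829 CPM in WT in cells with Cd8a, and 19747 and 14813 CPM in cells without. The medians over the list under the alternatives lay between 0.34 and 0.50 on the log2 scale.

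Single cells overlapped widely in this list. Among cells thinned to 2000 UMIs, 191 CKO cells had a median of 31 UMIs of the list, with quartiles of 18 and 57. The 604 WT cells had a median of 22, with quartiles of 15 and 37, and 1 CKO and 2 WT cells were too shallow to be thinned. Of the CKO cells 66.5% and of the WT cells 49.8% lay above the WT median. Of the CKO cells 23 (12.04%) and of the WT cells 29 (4.80%) lay above 82 UMIs, the WT 95th percentile. The low ends were alike, with 5th percentiles of 8.5 UMIs in CKO and 9 in WT. With the cells of each library divided by depth into 4 equal groups, from shallow to deep, the sums were 20335, 23785, 21127 and 16275 CPM in CKO, and 14624, 15653, 15543 and 13858 CPM in WT.

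**Figure D4:**
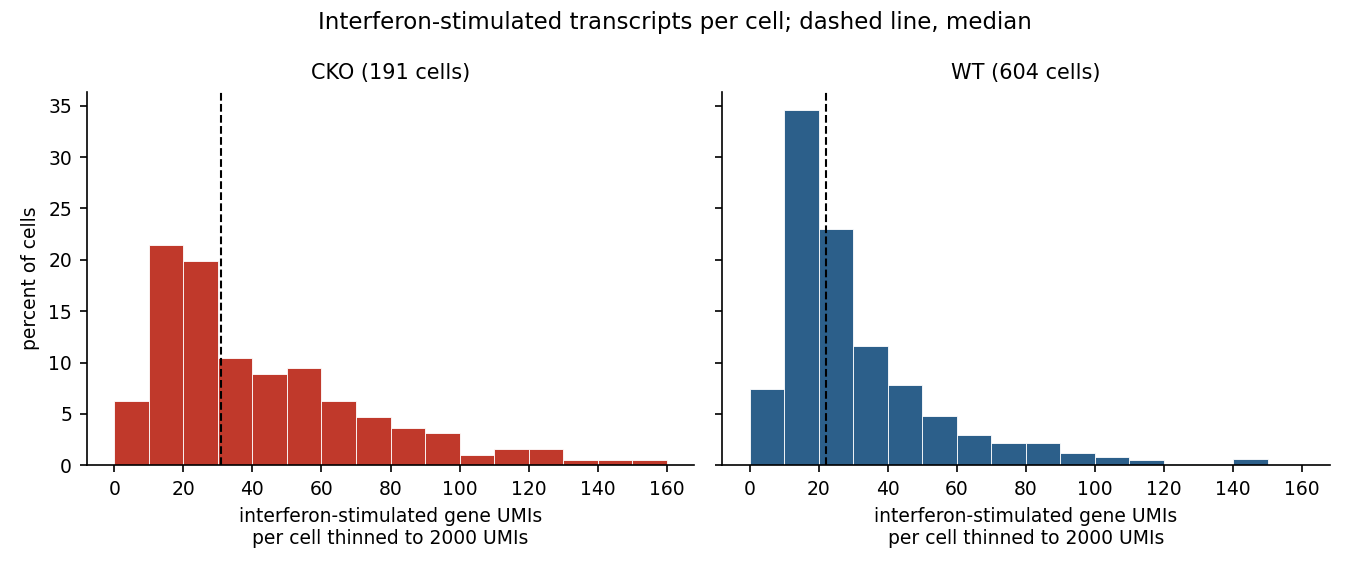
Bars give the percent of cells by the number of interferon-stimulated gene UMIs per cell, in steps of 10, after thinning to 2000 UMIs, in 191 CKO and 604 WT Cd8b1-gated cells; dashed lines mark the medians of 31 and 22. The distributions overlap, and the CKO cells extend further to the right.

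Genes of the antigen receptor and its first kinases differed little. All 29 of the list were measured and none was 1.5-fold apart, with a median of 0.14. The list holds the gate genes Cd3d, Cd3e, Cd3g and Cd8b1, whose levels were bounded by the gate and support nothing further. Lck, the kinase that the CD8 and CD4 co-receptors carry, stood at 591 CPM in CKO and 451 CPM in WT (1.31, 1.19 to 1.43). Fyn, a related kinase, stood at 206 and 156 CPM (1.32), and Cd6, a receptor that tunes the signal, at 146 and 106 CPM (1.38). The α chain constant gene Trac stood at 736 and 627 CPM (1.17), and the β chain genes Trbc1 and Trbc2 at ratios of 1.11 and 1.09. Cd8a stood at 401 CPM in CKO and 461 CPM in WT over all gated cells (0.871), but at 661 and 589 CPM in the cells with a Cd8a UMI. Those cells were chosen by Cd8a itself, so the second pair of values describes the choice. UMIs of α chain variable segments occurred in 25.5% of CKO and 26.2% of WT cells, and of β chain ones in 27.1% and 28.9%. Segments of the γ chain had 0 UMIs in CKO and 1 in WT, and those of the δ chain had 2 in each.

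The markers of the naive CD8 state did not differ as one. Of 10 measured, which include the gate gene Cd8b1, 2 were lower, Dapl1 and Lcn4, and the median was -0.16. Lcn4 (chromosome 2, 26667674 to 26671282) stood at 15.5 CPM in CKO and 43.4 CPM in WT, from 17 and 165 UMIs (0.358, 0.204 to 0.591). It was found in 2.62% and 8.94% of thinned cells (unthinned 7.81% and 20.1%) and in 0 B cells of either library, where 3 counts would be 0.0410% and 0.117%. Actn2, the muscle α-actinin gene, stood at 31.1 CPM in CKO and 41.8 CPM in WT (0.743, 0.498 to 1.08), an interval that includes 1. Ccr7, the gene of a chemokine receptor for lymph node homing, was level at 214 CPM in CKO and 216 CPM in WT (0.991). The transcription factor genes Lef1 (618 and 676 CPM, 0.916) and Tcf7 (378 and 413 CPM, 0.915) were close as well. Igfbp4, which encodes a growth factor binding protein, stood at 246 CPM in CKO and 196 CPM in WT (1.25, 1.09 to 1.44). Its direction was the opposite in cells with Cd8a, at 140 CPM in CKO and 176 CPM in WT (0.793, 0.629 to 0.990), and the higher level lay in cells without it, at 409 and 266 CPM (1.54, 1.25 to 1.88).

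Among transcription factors of naive T cells, 4 of 24 measured were higher and 0 lower, with a median of 0.12. These were Id3, Zbtb7b, Runx1 and, under the level for named genes and so named after its values were seen, Bcl6 (12.8 and 8.15 CPM). Zbtb7b stood at 29.2 CPM in CKO and 7.88 CPM in WT (3.71, 2.18 to 6.32), and it lay mainly in the cells without Cd8a. Runx1, a regulator of CD4 silencing in the thymus, stood at 79.5 and 49.7 CPM (1.60, 1.23 to 2.07). Its log2 ratio was -0.090 with the Nkg7 limit dropped and Cd8a required, so its direction depended on the gate. Bach2, a repressor that holds back effector genes, stood at 110 CPM in CKO and 79.6 CPM in WT (1.38, 1.11 to 1.71).

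Among cytokine receptors and their signalling, 9 of 32 were higher and 1, Il7r, was lower, with a median of 0.21. The median was -0.030 when the gated cells, chosen by their unthinned counts, were thinned. Il2ra, the high-affinity interleukin-2 receptor chain, stood at 24.7 CPM in CKO and 5.26 CPM in WT, from 27 and 20 UMIs (4.69, 2.54 to 8.83). These UMIs came from only 9 of 192 CKO cells and 12 of 606 WT cells, which the interval leaves out of account. Stat5a, which transmits interleukin-2 and interleukin-7 signals, stood at 48.4 and 24.2 CPM (2.0, 1.40 to 2.84). The signalling inhibitor gene Socs1 stood at 92.3 and 54.7 CPM (1.69, 1.32 to 2.15). Stat2 stood at 57.6 CPM in CKO and 34.4 CPM in WT (1.67). The receptor partner of Il7r, Il2rg, had a ratio of 0.989, from 329 and 332 CPM.

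Bcl2, which protects naive T cells from death and is maintained by interleukin-7, was higher at 273 CPM in CKO and 179 CPM in WT (1.52, 1.32 to 1.75). It stood at 290 and 176 CPM in cells with Cd8a (1.65). It was the higher member among 10 measured genes of the BCL2 family, whose median was 0.16. The survival gene Mcl1 stood at 394 and 311 CPM (1.26, 1.13 to 1.41). Bcl2l11, which encodes the death-promoting BIM, stood at 51.2 and 36.8 CPM (1.39), and the death effector gene Bax at 115 CPM in both libraries.

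Genes of memory and effector cells were divided. Of 22 measured, 5 were higher and 6 lower, with a median of -0.20. Eomes, a transcription factor of memory CD8 T cells, stood at 3.65 CPM in CKO and 20.5 CPM in WT, from 4 and 78 UMIs (0.178, 0.0474 to 0.475). Ahnak, a large scaffold protein gene, stood at 12.8 and 29.7 CPM (0.431). On the other side, Lgals1, which encodes galectin-1, stood at 106 CPM in CKO and 63.1 CPM in WT (1.68, 1.33 to 2.11), and Dusp5, a phosphatase gene induced by ERK signals, at 45.7 and 20.8 CPM (2.20). In cells with Cd8a the ratios were 1.26 (0.899 to 1.74) for Lgals1 and 1.46 (0.736 to 2.72) for Dusp5, with intervals that include 1. The gate limits Nkg7 and Ccl5, which belong to the same program. The list's median was 0.017 under a stricter receptor gate and 0.23 with effector-positive cells left out, so no direction of the list as a whole held.

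Genes that recent thymic emigrants carry over from the thymus were higher in 4 of 12 and lower in 0, with a median of 0.34. Sox4 stood at 32.0 CPM in CKO and 14.7 CPM in WT (2.17, 1.38 to 3.37). Pmepa1, induced by TGF-β, stood at 145 and 89.3 CPM (1.63, 1.34 to 1.97). Ikzf2, which encodes Helios, stood at 63.0 and 39.7 CPM (1.59, 1.18 to 2.13), and Helios is a regulatory T cell factor as well. In cells with Cd8a the list's median was 0.69 over 11 measured genes, beside 0.10 over all genes there. Ccr9, a gut homing receptor, stood there at 453 CPM in CKO and 281 CPM in WT (1.61), against 285 and 235 CPM in all gated cells (1.21). Cells without Cd8a did not share this: the list's median there was -0.093, beside 0.03 over all genes there. Its summed level was 1149 CPM in CKO and 1244 CPM in WT. Ccr9 stood there at 25.6 CPM in CKO and 72.2 CPM in WT (0.354, 0.168 to 0.680). The cells without Cd8a were not a like mixture in both libraries. A single Cd8b1 UMI occurred in 67 of 84 of them in CKO and 100 of 153 in WT, and their Klrd1 stood at 4.65 and 50.6 CPM. The part of this make-up in the contrast was not tested.

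The homing list otherwise had a median of 0.00, with 1 of 21 higher, Ly6c1, and 2 lower. These were Ly6c2 and Cxcr4, a chemokine receptor gene for CXCL12, at 12.8 CPM in CKO and 36.0 CPM in WT (0.355, 0.189 to 0.617). The integrin gene Itgae stood at 71.3 and 89.1 CPM (0.80), with an interval that includes 1. Its ratio was 1.05 in cells with Cd8a and 1.16 (1.03 to 1.31) without the Nkg7 limit, so it had no stable direction. Itgb2, the β chain of LFA-1, stood at 123 and 96.2 CPM (1.28, 1.04 to 1.57).

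Genes that respond to glucocorticoids had the lowest median of the 20 gene lists other than markers of other cells, over all gated cells. Of 13 measured, 6 were lower and 1 was higher, with a median of -0.57. Tsc22d3, which encodes the glucocorticoid-induced leucine zipper protein, stood at 90.4 CPM in CKO and 165 CPM in WT (0.547, 0.438 to 0.677). Tent5a and Cxcr4 are on this list too. Ddit4, an inhibitor of mTORC1, stood at 35.6 and 56.2 CPM (0.634, 0.438 to 0.895), and Txnip, which restrains glucose uptake, at 183 and 272 CPM (0.672, 0.575 to 0.782). The higher member was Nr3c1, the glucocorticoid receptor itself, at 111 CPM in CKO and 73.3 CPM in WT (1.52, 1.22 to 1.89). Fkbp5, a standard target of the receptor, was not among the lower ones, at 18.3 and 14.2 CPM (1.29, 0.730 to 2.19), and was named after its values were seen. In cells with Cd8a the median was -0.26, beside 0.10 over all genes there. Under the stricter receptor gate it was -0.25, and without the Nkg7 limit -0.30. The rank did not hold on either side of the Cd8a division, where the 3 replication protein A genes had lower medians (-0.297 with Cd8a and -0.678 without, against -0.263 and -0.417 for the glucocorticoid list).

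The list of AP-1 and other immediate early genes, which does not hold Egr1, was lower in 3 of 17 and higher in 0, with a median of -0.09. Egr1, higher in CKO as given above, was counted among the genes induced by the receptor. Fos stood at 32.9 CPM in CKO and 57.0 CPM in WT (0.577, 0.394 to 0.824). Jun, its partner in the AP-1 factor, stood at 151 and 233 CPM (0.647, 0.544 to 0.764). Zfp36l2, an RNA-binding repressor gene, stood at 297 and 439 CPM (0.676). Genes induced by the receptor did not follow one direction, with 5 of 19 higher and 2 lower. Among these Egr1 and Dusp5 were higher, and Icos (13.7 and 25.8 CPM, 0.532) and Nfatc1 (31.1 and 49.1 CPM, 0.632) were lower. The median of the receptor-induced genes was 0.31 in cells with Cd8a and -0.33 in cells without. Among 12 heat shock genes 2 were higher and 0 lower, with a median of 0.26. Hsph1, a co-chaperone gene, stood at 60.3 CPM in CKO and 33.1 CPM in WT (1.82, 1.33 to 2.47), and Dnaja1 at 534 and 399 CPM (1.34).

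Genes of DNA replication and repair, the processes in which Rpa1 acts, were expressed at low levels. Of 19 measured S phase genes, 6 were lower and 1 higher, with a median of -0.18. Of the 19, 2 had an interval below 1 and 0 had one above 1. None of the members with at least 20 CPM in a library had an interval that excluded 1. Mcm6, a subunit of the replicative helicase, stood at 18.3 CPM in CKO and 28.6 CPM in WT (0.638, 0.375 to 1.03). The sliding clamp gene Pcna stood at 75.8 and 71.2 CPM (1.06, 0.822 to 1.37). The list's median turned to 0.70 without the Nkg7 limit and to 0.86 with Cd8a required as well, so its direction rested on the cells taken in.

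Among 37 genes of DNA damage signalling and repair, 3 were higher and 6 lower, with a median of 0.02. Atr, the kinase that RPA-coated DNA recruits, stood at 20.1 CPM in CKO and 32.1 CPM in WT, from 22 and 122 UMIs (0.627, 0.379 to 0.993). The DNA ligase gene Lig3 stood at 17.4 and 28.9 CPM (0.601, 0.348 to 0.983). Etaa1, which activates ATR on RPA-coated DNA, stood at 30.1 and 20.2 CPM (1.49, 0.960 to 2.27). Among 18 targets of p53, 4 were higher and 0 lower, with a median of 0.10. Fas, the death receptor, stood at 36.5 CPM in CKO and 18.4 CPM in WT (1.99, 1.31 to 2.97), and the cyclin gene Ccng1 at 42.0 and 25.5 CPM (1.65, 1.13 to 2.37). Mdm2, the p53 feedback inhibitor, stood at 32.0 and 41.3 CPM (0.775, 0.521 to 1.12).

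Of the remaining lists, class I presentation had a median of 0.08, with 0 of 21 higher and 1 lower. The light chain gene B2m had a ratio of 0.983, whereas H2-T23, which encodes Qa-1 and presents to CD94 receptors, stood at 525 CPM in CKO and 407 CPM in WT (1.29, 1.17 to 1.42). H2-Q6 was the lower member, at 44.8 and 71.2 CPM (0.629), and shares reads with H2-Q7. The MYC network had a median of 0.22, with Mxd1 and Mnt (27.4 and 14.7 CPM, 1.86) higher among 9. Quiescence genes had a median of 0.04, with Ddit4 lower and 0 higher among 19.

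**Figure D5:**
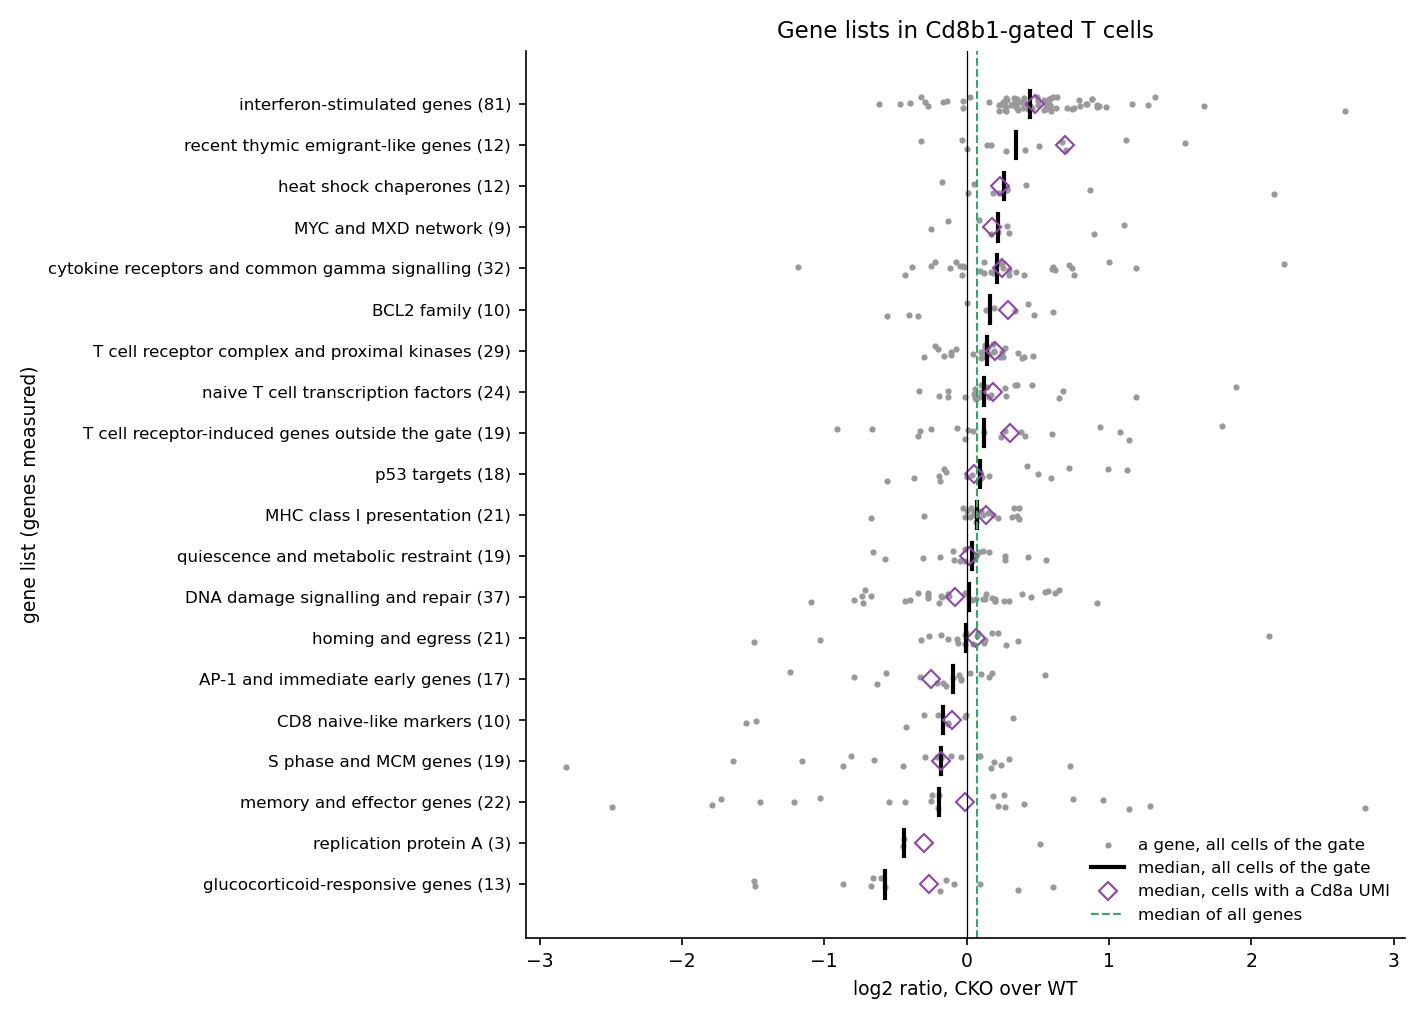
Each row is 1 of the 20 gene lists other than markers of other cells, with the number of measured genes, each dot a gene's log2 ratio of CKO over WT, the black line the median in all gated cells and the diamond the median in those with a Cd8a UMI; the dashed line marks the median of all genes at 0.08. Among the black lines the interferon-stimulated list is highest (0.45) and the glucocorticoid-responsive list lowest (-0.57), whereas among the diamonds recent thymic emigrant-like genes are highest (0.69) and replication protein A lowest (-0.297).

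Markers of other cells that the gate could hold were counted beside these results. CD4 T cell markers had 3 of 5 measured higher and 1 lower, with summed levels of 143 CPM in CKO and 109 CPM in WT. Regulatory T cell markers had 4 of 7 higher and 0 lower, with sums of 249 and 167 CPM. In cells with Cd8a their sums were 233 CPM in CKO and 133 CPM in WT, with a median log2 ratio of 0.75. In cells without Cd8a the sums were 274 and 291 CPM, with a median of 0.42. The lineage factor of regulatory T cells, Foxp3, named after its values were seen, stood over all gated cells at 17.4 CPM in CKO and 3.42 CPM in WT, and Ikzf4 at 18.3 and 4.47 CPM. Il2ra and Ikzf2 belong to that list too, and its part in their difference was not tested. B cell markers had 4 of 11 higher and 0 lower, with sums of 515 and 474 CPM, and 10 of the 11 were at least 10 times as high in B cells. Cd74, the invariant chain gene, stood at 61.2 CPM in CKO and 32.8 CPM in WT, against 11498 and 12229 CPM in B cells. In cells without Cd8a, 8 of 11 B cell markers were higher and 0 lower, with a median of 1.30 and sums of 553 CPM in CKO and 409 CPM in WT. In cells with Cd8a, 4 were higher and 2 lower, with a median of 0.02 and sums of 491 and 492 CPM.

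Innate-like T cell markers had 3 of 3 measured lower, with sums of 29.2 CPM in CKO and 85.1 CPM in WT. Cxcr6, a chemokine receptor gene of such cells, stood at 7.31 and 39.9 CPM (0.183, 0.0776 to 0.370). Natural killer markers had 2 lower and 1 higher of 3, with sums of 46.6 and 65.4 CPM. The cytolytic pore gene Prf1 stood at 21.9 CPM in CKO and 35.2 CPM in WT (0.623). Myeloid markers had sums of 52.99 and 83.0 CPM, with Lyz2 at 0 in CKO and 15.2 CPM in WT. Constant genes of the γδ receptor had sums of 7.31 CPM in CKO and 2.63 CPM in WT and no measured member, and erythroid and platelet markers had 0 UMIs. The part of these cells in the results was not tested.

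Several of the differences were also seen in other T cell gates of the same libraries. The median of the interferon list was 0.45 in Cd8b1-gated cells, 0.43 in naive-like CD4 T cells and 0.72 in memory-like CD8 T cells, which had Ccl5 and no limit on Nkg7 (58 CKO and 471 WT cells). Il7r had ratios of 0.439, 0.368 and 0.688 in these gates, and Dapl1 of 0.342, 0.435 and 0.332. The glucocorticoid list had medians of -0.57, -0.27 and -0.26. Some genes differed in direction. Id3 had ratios of 2.28 and 1.51 in the Cd8b1-gated and CD4 gates, and stood at 57.4 CPM in CKO and 115 CPM in WT in the memory-like gate (0.50). Ly6c2 had ratios of 0.489, 2.51 and 0.983, with the CD4 value from 21.7 and 8.63 CPM. Dnajc15 stood at 79.2 and 84.5 CPM in the CD4 gate (0.938). These differences between gates were not tested, since each genotype had 1 library.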

How the data were processed

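The deposited values were raw UMI counts per gene and barcode, 1 matrix per library, made by the authors from 10x 3′ libraries (v3.1 chemistry, per the labels' protocols). The file headers name Cell Ranger 6.0.2, whereas the submitters' processing notes name Cell Ranger 5.0.0, Seurat 4.0.3 and mm10. UMIs of the gated cells were summed per library and scaled to counts per 1000000 (CPM). Ratios of CKO over WT have exact conditional binomial intervals, levels exact Poisson intervals and shares exact binomial intervals, all at 95%, and with 1 library per genotype no test was run. The ratios were tested on simulated data with known fold changes. These counts were drawn from summed WT levels without any spread between cells, so they check the computation and not how far the intervals hold for real cells.

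Ranked genes were the 12 highest and 12 lowest ratios with an interval excluding 1 among genes reaching 50 CPM in either library. Receptor segments were left out, as were mitochondrial, sex-linked and predicted genes and any gene whose level in B cells was 10 or more times that in the gated cells. From each of 28 lists the 4 members at either end that reached 20 CPM in either library could be named, as could gate, receptor and Rpa genes. A list median set a library at 0 to 3 counts. B cells had Cd79a and no CD3 UMI. Members and lists were chosen with earlier results of these data known. Doublets were kept. As an alternative the 1513 CKO and 1304 WT barcodes with the highest Scrublet scores were left out, at 0.8% per 1000 barcodes. Other alternatives changed the mitochondrial limit, floor, fold, scaling, depth and gates. Gene positions came from GENCODE M21, which held 99.8% of the identifiers, and promoters from RefSeq (GRCm38.p6). Python 3.11.15, scanpy 1.11.5, numpy 2.4.6, scipy 1.17.1, pandas 2.3.3 and matplotlib 3.10.9 were used.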

Additional observations from a re-analysis of the deposited data

Results flagged for a closer look

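Each of the following genes had CKO and WT levels apart in one direction in the Cd8b1-gated T cells and in the other direction in another gate of the same libraries. With 1 library per genotype the difference between gates was not tested. Against memory-like CD8 T cells, Id3 had a ratio of CKO over WT of 2.28 in the Cd8b1-gated cells and 0.50 in the memory-like cells. Atp8b4 had ratios of 0.539 and 1.63, Ahnak of 0.431 and 1.84, H2-Q6 of 0.629 and 1.70, and Cxcr6 of 0.183 and 2.72. Against naive-like CD4 T cells, Ly6c2 had a ratio of 0.489 in the Cd8b1-gated cells and 2.51 in the CD4 cells. The memory-like gate held 58 CKO and 471 WT cells, and Ly6c2 and H2-Q6 share reads with near-identical copies.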

How the results depend on the processing

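No paired analysis was possible because each genotype had 1 library. The 23 ranked genes other than Nkg7 kept their direction under every alternative, apart from Klrd1 under the naive gate, which excludes it, and between 16 and 23 of them stayed at least 1.5-fold apart. The limits on the mitochondrial share, doublets, the weight of a cell and a depth range of 3000 to 10000 UMIs moved the share ratio and the counts of higher and lower genes by less than 1.5 times. The doublet limit took out 0 gated cells in CKO and 55 in WT, so it could not change the CKO levels and does not check them. Alternatives without the Nkg7 limit, with Cd8a required, or with both were chosen after seeing the data.

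The share ratio of 0.744 was 0.470 with cells thinned to 2000 UMIs, 0.550 under the receptor gate, 1.26 under the naive gate, 0.374 without the Nkg7 limit, 0.560 with Cd8a required and 0.314 with both. For the thinned share the limits were applied after thinning, which took in more cells (329 in CKO and 1663 in WT). The 94 higher genes numbered 327 at a floor of 20 CPM, 8 at 2-fold, 46 with median-of-ratios scaling, 276 with thinned cells, 184 under the receptor gate, 150 under the naive gate, 55 without the Nkg7 limit, 174 with Cd8a required and 54 with both. The 28 lower genes numbered 148 at 20 CPM, 9 at 2-fold, 116 with totals without ribosomal and mitochondrial genes, 59 with median-of-ratios scaling, 102 with thinned cells, 46 under the receptor gate, 50 under the naive gate and 48 with Cd8a required. The interferon list's median of 0.45 was 0.34 with median-of-ratios scaling.

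Of list medians at least 0.1 from 0, those that changed sign were of naive transcription factors (-0.023, naive gate), cytokine receptors (-0.030, thinned cells), memory and effector genes (0.017 under the receptor gate, 0.23 under the naive gate) and receptor-induced genes (-0.022, no Nkg7 limit). Replication protein A turned to 0.010 under the naive gate, 0.14 without the Nkg7 limit and 0.19 with both changes. S phase genes turned to 0.026 at 20 CPM, 0.014 at 3000 to 10000 UMIs, 0.70 without the Nkg7 limit and 0.86 with both changes. CD4 markers turned to -0.045 with both changes. Of named genes at least 1.5-fold apart, those whose log2 ratio changed sign were Mcm6 (0.69 without the Nkg7 limit, 0.93 with both changes), Tnfrsf4 (-0.039, thinned cells) and, with both changes, Runx1 (-0.090), Lig3 (0.12) and Cd40lg (-1.09). Smaller values turned more often, namely 49 of 122 named genes under 1.5-fold, Igfbp4 (-0.33 with Cd8a required), Itgae (0.22 without the Nkg7 limit) and Rpa3 (-0.24, thinned cells) among them, and 5 of 6 list medians nearer 0 than 0.1. These were the lists of homing (0.068 with Cd8a required), DNA repair (-0.079 with Cd8a required), class I presentation (-0.033), p53 targets (-0.014) and quiescence (-0.072), the last 3 with median-of-ratios scaling. The cause of these changes was not tested. With 1094593 UMIs in CKO, a gene at 5 CPM rests on few counts there.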
